A study of Mus musculus with 2 samples.

Results

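Among wild-type hepatocyte nuclei of a regenerating mouse liver, 1639 nuclei carried transcripts of a gene set that includes several genes better known from neurons, and Ncam2 and Grm8 gave the most UMIs among them. Each held at least 3 unique molecular identifiers (UMIs, counts of single captured RNA molecules) summed over Grm8, Dlgap1, Ncam2, Foxq1 and Cyp17a1. The rule also asked for at least 2000 UMIs, for Cps1 at 0.5% of UMIs or more, and for 0 UMIs over Glul, Slc1a2 and Lgr5. Cps1 encodes the first enzyme of the urea cycle, and the last 3 genes mark the hepatocytes that border the central vein. Of 5448 wild-type nuclei in the table, 4424 met the UMI limit, 3774 of these met the Cps1 limit and 3044 of these held no UMI of the central vein genes. These 3044 are called eligible here. The 1639 Grm8 and Ncam2 nuclei were 53.8% of the eligible nuclei and 30.1% of the wild-type library, out of 10615 nuclei in the series.

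The study compared 2 regenerating livers, 1 labelled wild-type and 1 labelled Cox10-/-, with 1 library each. Cox10 encodes an enzyme that makes the heme of cytochrome c oxidase, the last complex of the respiratory chain. Per the labels, mice with a floxed Cox10 allele received AAV8-GFP or AAV8-Cre once by retroorbital injection at 5e+10 genome copies, and a partial hepatectomy of 70% followed 4 weeks later. Which virus each animal received is not stated per sample, and no promoter driving Cre or GFP is given. The treatment description puts dissection 4 days after the hepatectomy, whereas the sample labels read 4 weeks, and this was not resolved. Both livers were perfused, digested and strained at 70 µm, and 7000 nuclei per sample went into droplet libraries of the 3′ ends of nuclear RNA. Cox10 itself was at 37.1 CPM (32.4 to 42.3; CPM is explained below) in eligible nuclei labelled wild-type, and its level was 50.4 CPM (35.7 to 69.2) in those of the library labelled Cox10-/-. Its counts therefore do not check that label, and whether the counted 3′ tags lie outside the deleted part is not stated. With 1 liver per group no test between groups or between sets of nuclei was possible, so every interval below is a 95% interval for counting error alone, and nuclei are not replicates.

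A liver lobule runs from the portal vein, where blood enters, to the central vein, where it leaves. Hepatocytes along this axis divide the work of the liver, a pattern called zonation. Cells near the portal vein are known for amino acid breakdown, urea synthesis and glucose production. Cells near the central vein are known for drug and ethanol oxidation, bile acid synthesis and glutamine synthesis, and WNT signals from the central vein act there through the TCF/LEF factors.

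The values that chose the nuclei are given as a description. Grm8 encodes a metabotropic glutamate receptor (chromosome 6, 27275119 to 28135178, minus strand, mm10). Dlgap1 encodes a scaffold protein of the postsynaptic density (chromosome 17, 69969073 to 70821413, plus strand), and Ncam2 an adhesion molecule of the immunoglobulin superfamily (chromosome 16, 81200697 to 81626828, plus strand). Foxq1 encodes a forkhead transcription factor (chromosome 13, 31556134 to 31560976, plus strand), and Cyp17a1 a cytochrome P450 of steroid synthesis (chromosome 19, 46667165 to 46673172, minus strand). Grm8, Dlgap1 and Ncam2 span 860.1, 852 and 426 kb, and the median over 4945 measured genes with a known span was 45.5 kb. Whether introns were counted is not given in the sources used here.

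The proximal upstream sequence is shown for the pair of genes that name these nuclei and for Hal and Cyp2e1, a higher and a lower gene of the comparison described below. Each window holds the 250 bases before the RefSeq start on GRCm38.p6, read 5′ to 3′ along the gene, and capitals mark the motifs searched on both strands. The letters CTTTGAA stand for the TCF/LEF motif. Its second form is CTTTGAT. The TATA box was searched with the letters TATAAA. Hal lies at chr10:93488518-93488767 (plus), Cyp2e1 at chr7:140763569-140763818 (plus), Ncam2 at chr16:81200447-81200696 (plus) and Grm8 at chr6:28135147-28135396 (minus, the most upstream of 3 starts).
Hal: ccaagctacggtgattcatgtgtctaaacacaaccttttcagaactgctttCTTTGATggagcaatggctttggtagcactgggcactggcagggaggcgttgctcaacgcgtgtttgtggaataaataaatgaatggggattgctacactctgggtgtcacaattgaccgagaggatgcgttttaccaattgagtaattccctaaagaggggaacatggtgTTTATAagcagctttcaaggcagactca
Cyp2e1: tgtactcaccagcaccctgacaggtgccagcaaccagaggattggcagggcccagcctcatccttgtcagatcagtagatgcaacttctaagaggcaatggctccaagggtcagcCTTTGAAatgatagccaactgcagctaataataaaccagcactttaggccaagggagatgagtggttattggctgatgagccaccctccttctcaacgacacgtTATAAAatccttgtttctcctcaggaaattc
Ncam2: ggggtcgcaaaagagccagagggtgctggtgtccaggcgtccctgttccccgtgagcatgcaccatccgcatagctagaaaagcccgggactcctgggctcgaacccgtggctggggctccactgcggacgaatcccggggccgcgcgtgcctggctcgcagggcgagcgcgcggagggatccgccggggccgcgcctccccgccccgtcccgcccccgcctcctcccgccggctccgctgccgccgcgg
Grm8: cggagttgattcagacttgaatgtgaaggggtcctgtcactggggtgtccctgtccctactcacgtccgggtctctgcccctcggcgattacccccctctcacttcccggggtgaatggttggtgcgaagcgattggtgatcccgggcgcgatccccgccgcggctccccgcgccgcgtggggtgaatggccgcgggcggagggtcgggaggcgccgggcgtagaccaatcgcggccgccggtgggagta
The Cyp2e1 window held CTTTGAA 135 bases and TATAAA 31 bases before the RefSeq start. GENCODE, which gives the gene coordinates printed elsewhere, begins Cyp2e1 at position 140763739, inside this window, so these distances hold for the RefSeq start alone. The Grm8 start by the GENCODE coordinates given above also lies inside its printed window. The Hal window held CTTTGAT 199 bases before the start and TATAAA on the opposite strand 28 bases before it. Neither the Ncam2 nor the Grm8 window held any of these letters, and their GC contents were 75.2% and 68.4%, against 45.6% for Hal and 48.8% for Cyp2e1. Of 32851 promoter windows of this length, 7.48% held a TCF/LEF motif and 12.4% a TATAAA. A match describes the letters and does not show a bound site.

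Levels below are summed UMIs scaled to a common total and given as CPM, the usual counts-per-million unit, after each nucleus had been thinned at random to 2000 UMIs. Members carried Ncam2 at 563 CPM (538 to 590), Grm8 at 409 CPM (388 to 432), Dlgap1 at 385 CPM (364 to 407), Foxq1 at 165 CPM (152 to 180) and Cyp17a1 at 44.2 CPM (37.3 to 52.0). These levels are not scaled to gene length, so they do not rank the genes by transcript number. In the deposited counts 79.7% of members held a UMI of Ncam2, 68.9% of Dlgap1, 61.3% of Grm8, 41.4% of Foxq1 and 14.03% of Cyp17a1. A single gene was detected in 135 members, 601 held 2 of the genes, 627 held 3, 15.2% held 4 and 27 nuclei held all 5. The median member held 5 of these UMIs and the highest 28.

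The nuclei did not form a separate peak. Over the 3044 eligible wild-type nuclei, thinned counts of the rule genes went down step by step from 25.03% of nuclei at 1 UMI to 1.31% at 7, with 23.5% at 0. Their mean was 2.01 UMIs and their variance 3.598, 1.79 times the mean. On the deposited counts 417 nuclei sat just inside the limit at exactly 3 UMIs and 459 just outside it at 2. Sds was at 748 CPM just inside and 651 CPM just outside, Hal at 560 and 472 CPM, and Cyp2e1 at 986 and 1106 CPM. The limit of 3 thus lies within a continuous range of counts. At a mean of 2.01 UMIs, counts this low do not show whether separate groups of nuclei lie beneath them.

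**Figure D1:**
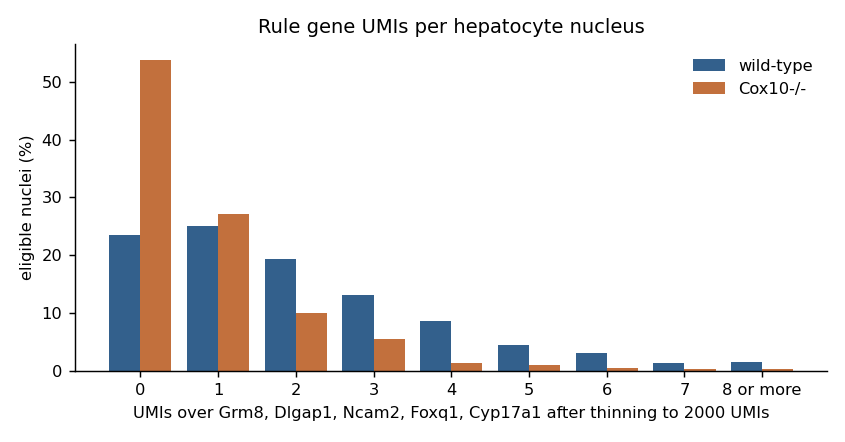
Percentage of eligible nuclei (vertical axis) by number of UMIs summed over the 5 rule genes after thinning to 2000 UMIs (horizontal axis), for the libraries labelled wild-type and Cox10-/-. Wild-type nuclei spread from 23.5% at 0 to 1.48% at 8 or more with no second peak, and 53.8% of the Cox10-/- nuclei sat at 0.

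The rule genes tended to occur in the same nuclei. The 5 genes had been put together with earlier results of these data known, so this describes the rule and does not test it. Each gene in turn was left out of the rule, and its level was read in nuclei with at least 3 UMIs of the other genes and in nuclei with none of them. Grm8 was at 315 CPM in 1330 such nuclei and at 145 CPM in 550, a ratio of 2.17 (1.83 to 2.58). Ncam2 was at 464 and 245 CPM (1.89, 1.68 to 2.15), and Foxq1 at 136 and 80.4 CPM (1.69, 1.33 to 2.17). Dlgap1 differed least, with 292 and 195 CPM (1.496, 1.30 to 1.73). Cyp17a1 was at 35.96 and 21.9 CPM (1.64, 1.01 to 2.83), with 115 and 19 UMIs behind these values. By pairs, 51.0% of eligible nuclei with a Grm8 UMI also held one of Ncam2, and 39.1% of those without it. The share was higher beside the partner in 9 of 10 pairs, and the intervals lay apart in 5. Foxq1 and Cyp17a1 were the exception, with 5.44% and 5.54%.

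Free RNA in the droplets can give such UMIs to other nuclei. In 60 wild-type nuclei with at least 10 UMIs of endothelial, stellate, myeloid, lymphoid or cholangiocyte markers, 18.3% (9.52 to 30.4%) held a Grm8 UMI after thinning, against 31.0% of eligible nuclei. Their median depth was 2707 UMIs, that of eligible nuclei 3226, and the 60 nuclei also carried Cps1 at 2625 CPM, so hepatocyte RNA was present in them. Ncam2 was found in 12 of these 60 nuclei (10.8 to 32.3%) and in 42.8% of eligible ones, Dlgap1 in 18.3% (9.52 to 30.4%) and 36.2%, and Foxq1 in 3 of 60 (1.04 to 13.9%) and 18.7%. The intervals of Ncam2, Dlgap1 and Foxq1 lay apart from those of eligible nuclei, and those of Grm8 met. No Cyp17a1 UMI was found in the 60 (0 to 5.96%), against 5.52% of eligible nuclei, a difference not detectable with so few nuclei.

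The comparison set was 366 eligible wild-type nuclei with 0 UMIs of the 5 genes and at least 3 UMIs over Sult2a8, Hacl1, Slco1a1 and Rdh16. These encode a liver sulfotransferase, a peroxisomal lyase, an organic anion transporter and a retinol dehydrogenase. The sets are not opposites, since 1431 of 1639 members (87.3%) also held at least 3 UMIs of these 4 genes. Sult2a8 was lower in members, at 544 CPM against 986 CPM, and Rdh16 was at 203 against 288 CPM. Hacl1 was at 670 and 611 CPM and Slco1a1 at 560 and 633 CPM, close to level although the comparison had been selected on them. Another 992 eligible nuclei held 1 or 2 UMIs of the 5 genes and entered neither set, and 47 held none with fewer than 3 of the comparison genes. Members had a median of 3477 UMIs and 10.8% mitochondrially encoded UMIs, comparison nuclei 3026 UMIs and 11.8%.

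Both sets carried hepatocyte RNA at like levels. The 10 hepatocyte markers summed to 30558 CPM in members and 30750 CPM in comparison nuclei. They include Cps1, on which both sets were selected, and Cyp2e1, which was at 721 and 1936 CPM. Endothelial, stellate and neural or glial markers were lower in members than in comparison nuclei. The 10 endothelial markers summed to 58.3 CPM (50.3 to 67.1) in members and 131 CPM (106 to 160) in comparison nuclei, and the 7 stellate markers to 30.8 and 72.4 CPM, with 6 and 4 of them detected. Myeloid markers summed to 14.6 and 20.5 CPM, lymphoid markers to 3.66 and 9.56 CPM, with intervals that overlapped, and cholangiocyte markers to 47.0 and 46.4 CPM. The neural and glial list, which does not hold the rule genes, summed to 37.2 and 68.3 CPM, with 2 and 3 of its 7 markers detected. The part of these markers in the results was examined by leaving nuclei out. When nuclei with any endothelial or stellate marker UMI were left out, 1359 members and 294 comparison nuclei remained, and the ratios of Sds (2.83) and of Cyp2e1 (2.65-fold lower) stayed within the intervals given below.

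Members had higher levels of several periportal enzymes and lower levels of most pericentral ones. A gene was counted as higher or lower when its CPM ratio reached 1.5 in either direction with the near end of the interval beyond 1.2. This held for 54 of 4975 genes with at least 100 UMIs in the higher direction (1.09%) and for 56 in the lower direction (1.13%), 13 genes used by the rules being left out. By the ratio of 1.5 alone, 4.06% were higher and 2.39% lower. Against all 413 eligible nuclei with 0 rule gene UMIs, 53 of 5046 genes were higher (1.05%) and 46 lower (0.912%). Among nuclei with at most 10% mitochondrially encoded UMIs, 675 members and 115 comparison nuclei, 26 genes were higher and 33 lower, and Sds (3.77-fold) and Cyp2e1 (2.38-fold lower) kept their sides. The median log2 ratio of all genes was 0.03. Since the sets of nuclei were defined with earlier results of these data known, these counts describe the division and do not test it.

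Sds, the serine dehydratase that turns serine into pyruvate, was at 862 CPM (831 to 894) in members and 288 CPM (251 to 330) in comparison nuclei, 2.99-fold (2.60 to 3.46). Hal, the histidine ammonia-lyase that begins histidine breakdown, was at 614 and 303 CPM (2.02-fold, 1.76 to 2.34). Hsd17b13, a lipid droplet dehydrogenase, was at 526 and 212 CPM (2.48-fold, 2.11 to 2.94). Hsd17b6, a steroid and retinol dehydrogenase, was at 250.5 and 98.4 CPM (2.55-fold, 1.9995 to 3.29), and Cyp2f2, a P450 of periportal cells, at 298 and 164 CPM (1.82-fold, 1.501 to 2.21). These 5 were the members counted as higher among 13 measured genes of a 15-gene periportal list, and none was counted as lower. The list's median log2 ratio was 0.46.

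The periportal list did not move as one. Ass1, the urea cycle enzyme that joins citrulline and aspartate, was at 1403 CPM in members and 1669 CPM in comparison nuclei, a ratio of 0.840 (0.789 to 0.896). Asl, the next enzyme of that cycle, had a ratio of 0.999, Arg1, which releases urea, 1.15, and Pck1, the gatekeeper of glucose synthesis, 1.05 (0.993 to 1.11). Gls2, the liver glutaminase, was at 404 and 294 CPM (1.38-fold), and Etnppl, a lyase of phosphoethanolamine, at 148 and 98.4 CPM (1.501-fold, 1.17 to 1.95), below the limit on its interval. The urea cycle list (6 measured) and the gluconeogenesis list (10 measured) had no gene counted as higher or lower, with median log2 ratios of -0.04 and 0.10. Sds and Hal thus differed between the sets by more than Ass1, Asl, Arg1 and Pck1 did. Both sets had been selected on Cps1, itself a urea cycle gene, and the part of this in the urea cycle values was not tested.

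On the pericentral side Cyp2e1, the P450 of ethanol oxidation, was at 721 CPM (692 to 750) in members and 1936 CPM (1836 to 2039) in comparison nuclei, 2.69-fold lower (2.51 to 2.87). Cyp7a1, which limits the rate at which bile acids are made, was at 43.0 and 139 CPM (3.24-fold lower, 2.49 to 4.21). Gulo, the last enzyme of vitamin C synthesis, was at 39.4 and 126 CPM (3.19-fold lower, 2.42 to 4.21), and Cyp2c29, a P450 of drug metabolism, at 138 and 298 CPM (2.16-fold lower, 1.83 to 2.55). Of 21 listed pericentral genes 13 were measured, 10 were counted as lower and none had a ratio above 1, with a median log2 ratio of -0.90. Cyp1a2, Cyp2c54, Ahr, Rgn, Cyp27a1 and Rnf43 completed the 10, at 1.67-fold to 2.24-fold lower. Cyp2c50, Cyp3a11 and Znrf3 were 1.53-fold, 1.49-fold and 1.26-fold lower and missed the limits. Reads of the closely related Cyp2c genes may be split between copies, so single values of that family are uncertain.

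**Figure D2:**
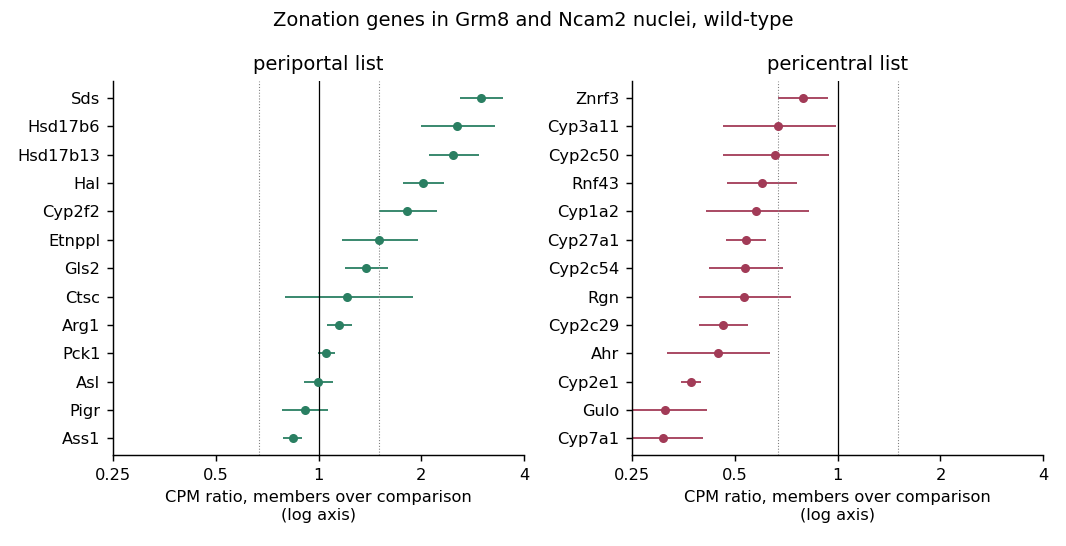
CPM ratio of Grm8 and Ncam2 nuclei over comparison nuclei in the wild-type library (log axis) for 13 periportal and 13 pericentral genes. Points are ratios, bars 95% counting intervals, and dotted lines mark a ratio of 1.5 in either direction. Sds is farthest right at 2.99 and Cyp7a1 farthest left, 3.24-fold lower, while Pck1, Asl and Arg1 lie near 1.

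Beyond the zonation lists, genes with high ratios among those at 50 CPM or more in 1 set had varied roles. Sult5a1, a sulfotransferase, was at 58.0 and 10.9 CPM (5.30-fold, 2.64 to 12.5), with 8 UMIs in the comparison nuclei. Gldc, which cleaves glycine in mitochondria, was at 223 and 119 CPM (1.88-fold, 1.501 to 2.37). Acly, which makes cytosolic acetyl-CoA for lipid synthesis, was at 224 and 111 CPM (2.02-fold, 1.61 to 2.58), and was the 1 gene counted among 12 measured for lipogenesis. Cryl1, a dehydrogenase of gulonate, was at 86.3 and 30.1 CPM (2.87-fold). Rad51b, a recombination factor, was at 757 and 351 CPM (2.15-fold, 1.89 to 2.46), and Plxna2, a semaphorin receptor, at 178 and 86.1 CPM (2.06-fold). Reck, a membrane inhibitor of metalloproteases, Rasgef1b, a Ras exchange factor, and Timm23, a subunit of the mitochondrial import channel, were 2.83-fold, 2.44-fold and 2.22-fold higher. Of the 54 higher genes 6 carry names of predicted genes, and none of the lower ones does.

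Among the genes with the lowest ratios, Esrrg, an orphan nuclear receptor, was at 18.0 CPM in members and 92.9 CPM in comparison nuclei (5.16-fold lower, 3.59 to 7.44). Tenm3, a teneurin adhesion protein that is itself best known from neurons, was at 110 and 411 CPM (3.73-fold lower, 3.19 to 4.36). Cyp2c38 was at 18.0 and 86.1 CPM (4.78-fold lower), and Susd4, a complement regulator, at 15.6 and 66.9 CPM (4.30-fold lower). Tox, an HMG-box DNA-binding protein, was at 173 and 374 CPM (2.16-fold lower, 1.87 to 2.50), and Slc16a10, an aromatic amino acid transporter, at 215.1 and 437 CPM (2.03-fold lower, 1.78 to 2.32). Tox and Slc16a10 stood at 1123 and 1062 CPM in 81 wild-type nuclei with at least 3 UMIs over Glul, Slc1a2 and Lgr5, and Cyp2c38 and Esrrg at 259 and 216 CPM. These genes were thus lowest in members, intermediate in comparison nuclei and highest in the nuclei with central vein transcripts. The rule genes were not confined to eligible nuclei. In the 81 nuclei and in all eligible ones Ncam2 was at 198 and 354 CPM and Dlgap1 at 160 and 261 CPM. Grm8 was at 105 and 249.7 CPM there, Foxq1 at 80.2 (42.7 to 137) and 111 CPM, and Cyp17a1 at 18.5 (3.82 to 54.1) and 29.2 CPM. Aldh3a2, a fatty aldehyde dehydrogenase, Ube2e2, a ubiquitin-conjugating enzyme, and Prex2, a Rac exchange factor, were 3.06-fold, 1.87-fold and 2.20-fold lower.

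Hamp, which encodes the iron hormone hepcidin and is known from the middle of the lobule, was at 163 CPM (150 to 178) in members and 381 CPM (338 to 429) in comparison nuclei, 2.34-fold lower (2.01 to 2.70). Its neighbouring copy Hamp2 was at 35.4 and 42.3 CPM, and reads may be split between the pair. Igfbp2, another gene of the middle zone, was at 154 and 189 CPM.

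Few other genes of neural adhesion and the synapse could be measured. Of 37 listed genes, 6 besides Grm8, Dlgap1 and Ncam2 passed the count limit in wild-type, and none was counted in either direction, with a median log2 ratio of 0.16. Pclo, a presynaptic scaffold, was at 42.1 and 26.0 CPM (1.62-fold, 1.0002 to 2.78), and Cacna1d, a calcium channel, at 51.3 and 30.1 CPM (1.71-fold, 1.09 to 2.79), both past 1.5 but short of the interval limit. Erbb4, a neuregulin receptor, was at 924 and 786 CPM (1.18-fold). Syt1, a vesicle calcium sensor of the marker list, was lower in members, at 32.0 and 60.1 CPM. In the library labelled Cox10-/-, against nuclei with 0 rule gene UMIs, 6 listed genes were measured, Erbb4 was counted as higher and Ntm and Sntg1 as lower, and the median log2 ratio was -0.60.

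Other lists had at most 3 genes counted, beside 1.09% of all 4975 measured genes counted as higher and 1.13% as lower. In lists this short 1 gene already exceeds these shares. Bile acid genes had 3 of 13 lower, namely Cyp7a1, Cyp27a1 and Slco1b2, a bile acid uptake transporter at 1018 and 1714 CPM. Cyp7a1 and Cyp27a1 are also among the pericentral genes counted above. Hepatocyte transcription factors had Tox and Nr1i3, the xenobiotic receptor, lower among 18, and Onecut1 was at 268 and 186 CPM (1.44-fold, 1.204 to 1.74). Male-biased genes had 2 of 9 lower, Cyp2d9 and C6, and fatty acid oxidation genes 2 of 13, Cyp4a10 and Acaa1b. Sqle, an enzyme of cholesterol synthesis, was the 1 gene of 15 counted there, at 85.7 and 50.5 CPM. No gene was counted among 14 of the circadian clock, 13 of the acute phase, 17 hormone receptors, 27 ribosomal proteins or 13 mitochondrially encoded genes. Among 9 measured immediate early genes, which handling can raise, Junb was 1.55-fold lower, and all 15 listed summed to 1309 and 1642 CPM. The 27 cell cycle genes, of interest in a liver after hepatectomy, stayed below the count limit one by one and summed to 58.3 CPM (50.3 to 67.1) in members and 45.1 CPM (31.0 to 63.3) in comparison nuclei.

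Several zonation genes followed the number of rule gene UMIs in steps, which describes the same division again because these UMIs define it. Across eligible wild-type nuclei with 0, 1, 2, 3 or 4, and 5 or more thinned rule gene UMIs, Sds was at 369, 617, 769, 921 and 967 CPM. Hsd17b6 was at 129, 167, 204, 261 and 311 CPM over the same steps. Cyp2e1 was at 1714, 1264, 876, 596 and 470.0 CPM, 3.65-fold lower at the last step than at the first. Cyp7a1 went from 128 to 14.2 CPM, Gulo from 103 to 22.1 CPM and Hamp from 374 to 91.5 CPM, each lower at all 4 steps. Others did not move in 1 direction throughout. At the last step Hsd17b13 went from 569 to 543 CPM and Cyp2f2 from 320 to 303 CPM, after higher levels at each earlier step. Cyp1a2 and Igfbp2 were lower at 3 steps and higher at 1. Pck1 stayed between 2003 and 2117 CPM, and Ass1 went from 1624 to 1298 CPM, against the direction of Sds. Median depth before thinning went from 3337 UMIs at the first step to 3060 at the last, and median mitochondrial shares lay between 11.2% and 11.7%. The part of depth in these steps was not tested beyond thinning.

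**Figure D3:**
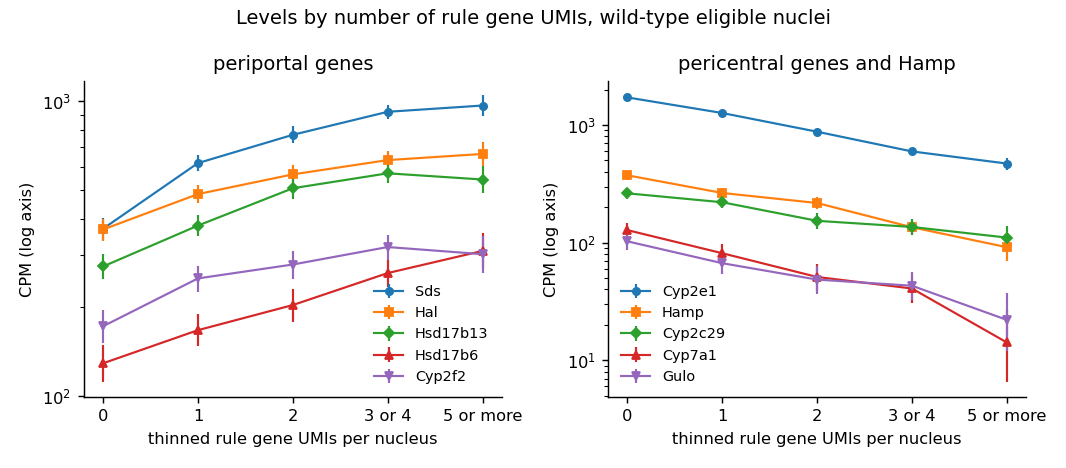
Summed CPM (log axis) of 5 periportal genes and of 4 pericentral genes with Hamp, by thinned rule gene UMIs per eligible wild-type nucleus. Bars are 95% Poisson intervals. Sds goes from 369 to 967 CPM and Cyp2e1 from 1714 to 470.0 CPM from left to right.

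The division was also read the other way round, with genes chosen after their values had been seen. Eligible wild-type nuclei with at least 3 UMIs over Sds, Hal and Hsd17b13 and none over Cyp2e1, Gulo and Cyp7a1 numbered 634, and those with the reverse numbered 409. Grm8 was at 404 CPM (370 to 440) in the first set and 22.0 CPM (13.0 to 34.8) in the second, an 18.3-fold ratio (11.5 to 31.2). Ncam2 was at 467 and 108 CPM (4.34-fold, 3.46 to 5.49), Cyp17a1 at 36.3 and 9.78 CPM (3.71-fold, 1.73 to 9.10), and Foxq1 at 143 and 58.7 CPM (2.43-fold, 1.76 to 3.42). Dlgap1 differed least, at 312 and 160 CPM (1.95-fold, 1.59 to 2.39). The split genes had been picked from the comparison of nuclei selected on these 5 genes, so the ratios describe the same division again and do not support it. Sult2a8 lay on the opposite side, at 394 and 1196 CPM (3.04-fold lower, 2.72 to 3.39), and Rdh16 was at 202 and 328 CPM. Hacl1 was at 698 and 499 CPM and Slco1a1 at 516 and 595 CPM.

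**Figure D4:**
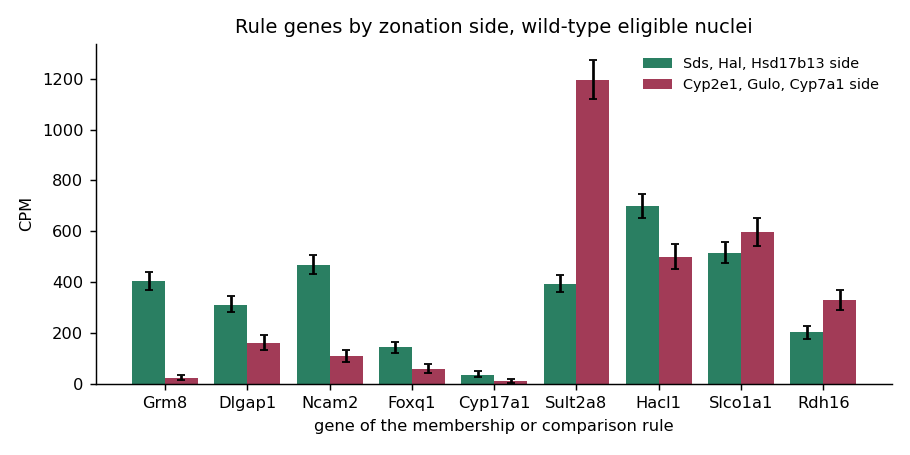
CPM of the 5 membership genes and 4 comparison genes in 634 eligible wild-type nuclei on the Sds, Hal and Hsd17b13 side and 409 on the Cyp2e1, Gulo and Cyp7a1 side. Bars are summed CPM with 95% Poisson intervals. Grm8 stands at 404 and 22.0 CPM, and Sult2a8 at 394 and 1196 CPM.

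The eligible wild-type nuclei were also split by 1 gene at a time. Cyp2e1 in nuclei with a Grm8 UMI was 0.42 times its level in nuclei without one. The ratio was 0.56 for Cyp17a1, 0.59 for Ncam2, 0.72 for Foxq1 and 0.76 for Dlgap1. Another readout gave another order, with Gulo at 0.42 for Grm8, 0.61 for Cyp17a1, 0.63 for Dlgap1, 0.68 for Foxq1 and 0.71 for Ncam2. The median log2 ratio of 15 pericentral genes was -0.63 for Grm8 and -0.64 for Cyp17a1. The Cyp2e1 ratio, nuclei with over nuclei without a UMI, was 2.05 for Sult2a8, 1.27 for Rdh16, 1.15 for Slco1a1 and 0.92 for Hacl1. Nuclei with Sult2a8 thus lay on the Cyp2e1 side and nuclei with Grm8 on the other, while Hacl1 and Slco1a1 split Cyp2e1 little.

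The same rule found fewer nuclei in the library labelled Cox10-/-, called Cox10-/- here by its label alone. On deposited counts 109 of 377 eligible nuclei (28.9%) qualified there. Since depth differed, every nucleus was thinned to 2000 UMIs before the rule was applied, and then 1054 of 3320 eligible wild-type nuclei (31.7%, 30.2 to 33.4%) and 41 of 524 eligible Cox10-/- nuclei (7.82%, 5.67 to 10.5%) qualified. Few Cox10-/- nuclei were eligible at all, since 766 of 3179 with 2000 UMIs or more met the Cps1 limit and 377 of these held no UMI of the central vein genes. The same steps kept 3774 of 4424 and then 3044 in wild-type, so the eligible pools were cut to different degrees. With 1 liver of each kind, genotype, animal and library cannot be told apart. Within Cox10-/- eligible nuclei Cyp17a1 was not detected in 377 nuclei (0 to 4.89 CPM), against 29.2 CPM in eligible wild-type nuclei. A floor of 3 UMIs stands at 3.98 CPM in these Cox10-/- nuclei. Grm8 was at 75.6 and 249.7 CPM, Dlgap1 at 74.3 and 261 CPM, Foxq1 at 30.5 and 111 CPM, and Ncam2 at 228 and 354 CPM, wild-type second.

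In the library labelled Cox10-/-, nuclei that met the rule were compared with other eligible nuclei of that library. Only 38 nuclei met the comparison rule there, too few to use, so the 109 were set against 139 nuclei with 0 rule gene UMIs, and genes were measured from 20 UMIs. Their median depths were 5858 and 3518 UMIs and their mitochondrial shares 3.04% and 4.51%, and both sets were thinned. Hepatocyte markers summed to 31665 CPM in the nuclei that met the rule and 37975 CPM in the others, cholangiocyte markers to 220 and 137 CPM, and stellate markers to 165 and 227 CPM. Over 28 ribosomal protein genes the median log2 ratio was -0.59, with 3 above 1. The part of these values in the result was not tested. Of 3965 genes, 54 were higher (1.36%) and 70 lower (1.77%). Sds was at 1560 and 665 CPM (2.34-fold), Hal at 559.6 and 277 CPM (2.02-fold) and Hsd17b6 at 261 and 115 CPM (2.27-fold). Cyp2e1 was at 619 and 1644 CPM (2.65-fold lower), Gulo at 87.2 and 237 CPM (2.72-fold lower) and Tox at 298 and 978 CPM (3.28-fold lower). Of the wild-type genes that were higher than in nuclei with 0 rule gene UMIs, 39 were measured here and 33 lay on the same side of 1 (84.6%), beside 52.2% of all 3858 genes measured in both. Of the lower ones 31 of 37 did (83.8%), beside 47.8%. Fewer met the limits themselves, 12 of the 39 in the higher and 14 of the 37 in the lower direction. None of these 76 genes was counted in opposite directions in the libraries.

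**Figure D5:**
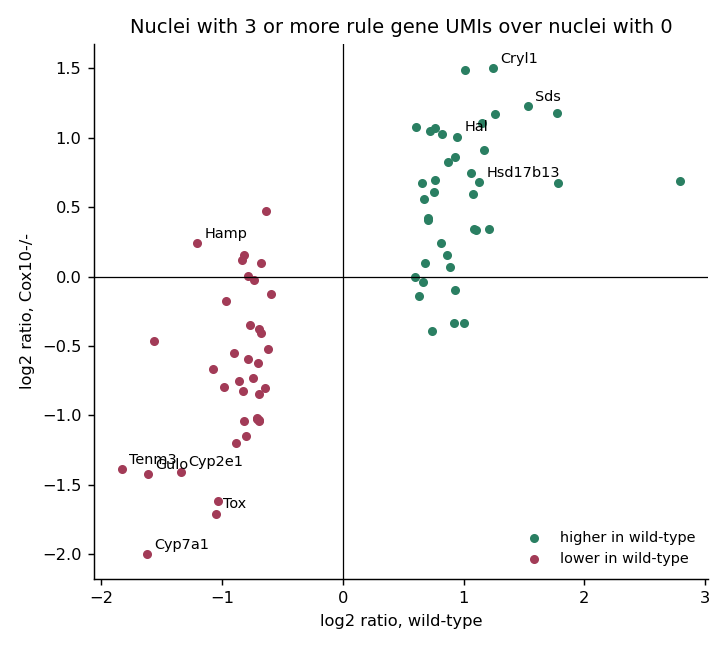
Log2 ratio of nuclei with 3 or more rule gene UMIs over nuclei with 0, in the wild-type library (horizontal axis) and the library labelled Cox10-/- (vertical axis), for 76 genes counted as higher or lower in wild-type and measured in both. 33 of 39 genes on the right lie above 0 and 31 of 37 on the left lie below it, with Hamp among the exceptions.

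Some genes are given side by side for the libraries, each against nuclei with 0 rule gene UMIs. The ratio of Cyp2f2 was 1.82 (1.52 to 2.20) in wild-type and 1.11 (0.779 to 1.59) in the library labelled Cox10-/-, with overlapping intervals. That of Slc16a10 was 0.512 (0.450 to 0.584) and 0.885 (0.687 to 1.14), with counting intervals that lay apart. Etnppl was 1.52-fold higher in wild-type and 2.12-fold in the library labelled Cox10-/-, where it was at 853 and 403 CPM. Cyp3a11 had ratios of 0.670 (0.470 to 0.971) and 0.504 (0.395 to 0.639). Whether these ratios differed between the libraries was not tested.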

How the data were processed

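The deposited table holds raw UMI counts of 32286 genes in 10615 nuclei, not normalized by the authors. Cell Ranger 7.0 and mm10 are named in the submitters' processing notes. Annotation, intron use and nucleus filters were not found in those sources. Totals were 17703804 UMIs (wild-type) and 14476400 UMIs (Cox10-/-), with medians of 2854 and 2291 per nucleus.

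Nuclei were chosen on deposited counts. Each was then thinned to 2000 UMIs without replacement (seed 1), and UMIs were summed per set and divided by the set's total to give CPM. Members' thinned sum was 3278000 UMIs and that of comparison nuclei 732000. Intervals at 95% are exact Poisson (levels), Clopper-Pearson (shares) and conditional binomial (ratios). Nuclei of 1 liver share that liver, so intervals cover counting error only. Log2 values used a prior of 0.5 UMI. A floor is 3 UMIs over a set. The 14 highest and 14 lowest counted genes, by the interval end nearest 1 among those at 50 CPM or more in 1 set, are named, with leading genes of each list. Coordinates come from GENCODE vM21, where 31424 of 32286 symbols were found, and promoters come from RefSeq (GRCm38.p6). Scrublet in scanpy 1.11.5 marked 4 wild-type nuclei (0.0734%), too few for it to have worked, and 27 Cox10-/- nuclei (0.523%), and none was removed. The libraries share 7 barcodes, 4 of them among members. Alternatives used edgeR 4.0.16 and DESeq2 1.42.0 for scaling factors. Analyses ran in Python 3.11.15. Members, lists and rules were chosen with earlier results of these data known.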

Additional observations from a re-analysis of the deposited data

Results flagged for a closer look

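Hamp had ratios on opposite sides of 1 in the libraries under the membership rule. Against nuclei with 0 rule gene UMIs it was 2.31-fold lower in the wild-type Grm8 and Ncam2 nuclei. In the library labelled Cox10-/- it was at 633 CPM in 109 nuclei that met the rule and 536 CPM in 139 with 0 rule gene UMIs, a ratio of 1.18 (0.930 to 1.499) whose interval holds 1. Other divisions of the Cox10-/- nuclei fell on either side. By thinned rule gene UMIs Hamp was at 557 CPM at 0, 559 CPM at 1 and 684 CPM (511 to 897) at 2. It was at 423 CPM (265 to 641) at 3 or 4 and 500.0 CPM (216 to 985) at 5 or more, the last from 8 nuclei. Its ratio with over without a UMI was 0.81 for Grm8 and 0.90 for Ncam2. The difference between the libraries was not tested.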

How the results depend on the processing

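No paired analysis was possible because each group is 1 library with no replicate. Counts of higher and lower genes were 87 and 159 with no limit on low counts, 87 and 116 from 20 UMIs per gene, and 26 and 33 among nuclei with at most 10% mitochondrially encoded UMIs (675 and 115 nuclei, fewer genes measured). The other 14 settings kept both counts within 1.5 times. Like counts did not mean the same genes. Another thinning seed gave 59 and 53, sharing 33 of 54 and 42 of 56 genes, so single genes near the limits depend on the draw. Membership after thinning shared 28 and 45 of these genes, nuclei from 3000 UMIs 28 and 41, and nuclei of 3000 to 6000 UMIs 28 and 39. With at most 10% mitochondrially encoded UMIs 14 and 22 were shared. TMM factors gave 65 and 47, and DESeq2 factors 65 and 50. The added setting without endothelial or stellate marker UMIs, chosen after seeing the data, gave 53 and 46. Sds, Hal, Hsd17b13, Hsd17b6, Rad51b, Cryl1, Acly, Plxna2, Cyp2f2, Tenm3, Cyp2e1, Cyp7a1, Hamp, Tox, Cyp2c29, Slc16a10 and Prex2 were counted in the same direction in all 16 planned settings, whereas Susd4 was counted in 10, Aldh3a2 in 11, Timm23 in 12 and Rasgef1b and Esrrg in 13. The 2 settings that only changed the limit on low counts left the ratios as they were, so no named gene could be lost there. Another left out nuclei by their Scrublet scores, although Scrublet had marked too few wild-type nuclei to have worked. The periportal median log2 ratio ran from 0.38 to 0.61 and the pericentral one from -1.05 to -0.86. The wild-type share of eligible nuclei was 31.7% after thinning, 60.8% from 3000 UMIs, 58.7% at 3000 to 6000 UMIs, 61.7% with at most 10% mitochondrial UMIs, 68.9% at a limit of 2 rule gene UMIs and 30.5% at 5. The Cox10-/- share, 7.82% after thinning, was 28.9% on deposited counts, 18.9% from 3000 UMIs, 15.1% at 3000 to 6000 UMIs, 17.0% at a limit of 2 and 1.72% at 5. With at most 10% mitochondrial UMIs the left-out ratios were 3.64 for Grm8, 2.25 for Ncam2 and 3.85 for Cyp17a1, and the cause was not tested. At 2000 UMIs per nucleus 1 UMI is a large step, so membership of a single nucleus is uncertain.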

Other observations

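Grm8 was also found in nuclei below the Cps1 limit that carried markers of other cell types. In 2112 Cox10-/- nuclei with at least 10 UMIs of endothelial, stellate, myeloid, lymphoid or cholangiocyte markers, 39 nuclei (1.85%) held 144 thinned Grm8 UMIs between them. Dlgap1, by contrast, had 19 UMIs in 19 such nuclei and Ncam2 74 UMIs in 69, so Grm8 was concentrated in few nuclei. The cell type of these few nuclei was not examined. The 2112 nuclei also carried Cps1 at 1406 CPM, and 91.2% held a Cps1 UMI, so hepatocyte RNA was present in them.

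The table also holds a row for Dendra2, a photoconvertible fluorescent protein that mice do not encode and the labels do not mention. It was at 206 CPM in wild-type Grm8 and Ncam2 nuclei, 225 CPM in comparison nuclei, 266 CPM in the Cox10-/- nuclei that met the rule and 396 CPM in those with 0 rule gene UMIs. Both libraries thus carried it in hepatocyte nuclei.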
